A study of Mus musculus with 30 samples.

Results

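Fatty acid synthesis and desaturation was followed through 10 enzyme genes in mouse tail fibroblasts exposed to 8 small molecules. The genes were Acly, Acss2, Acaca, Fasn, Scd1, Scd2, Elovl5, Elovl6, Fads1 and Fads2. They were listed by name, with earlier results of these data known, and are the rows whose Ensembl identifier carries that symbol in GENCODE M21. All 10 were present among the 29861 genes of the series, and all 10 had at least 1 TPM in at least 3 libraries and were tested. TPM, transcripts per 1000000, is a level corrected for transcript length.

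In this pathway Acly, ATP citrate lyase, and Acss2, an acetyl-CoA synthetase, make cytosolic acetyl-CoA from citrate and from acetate. Acaca, acetyl-CoA carboxylase, turns it into malonyl-CoA, and Fasn, fatty acid synthase, builds palmitate from malonyl-CoA. Elovl6 lengthens palmitate to stearate, the stearoyl-CoA desaturases Scd1 and Scd2 put in the first double bond to give palmitoleate and oleate, and Fads2, Elovl5 and Fads1 desaturate and lengthen polyunsaturated fatty acids. The transcription factors SREBP-1 and SREBP-2 are known to raise many of these genes when sterols or unsaturated fatty acids are low, and the sterol-sensing nuclear receptor LXR raises the gene for SREBP-1.

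All libraries came from CCG-HTA-1, 1 primary fibroblast line grown from tail skin of UMHet3 mice, a genetically mixed stock, at passage 4. The cells attached for 24 hours, received a compound at about 80% confluence, and were harvested 48 hours later. Every group, the controls included, shared high-glucose medium without pyruvate, 10% fetal calf serum, 10% CO2 and ambient oxygen. Antimycin A and Dihydrorotenone block electron transfer in mitochondria, Diphenyleneiodonium Cl acts on flavoproteins and Podofilox on tubulin assembly. Cardamonin is a chalcone from plants and Clofilium tosylate a blocker of potassium channels, and the last 2 compounds were labelled BerberineA and AEG 3482. Each had 3 libraries, against 6 for the solvent DMSO, and doses were not used here. The study's title asks which routes to cellular stress resistance need the transcription factor NRF2 and which do not. The labels give a donor age of 5 to 8 weeks for every library except Dihydrorotenone replicate 1, which has 8 to 11 weeks. Since replicates are cultures or libraries of 1 line, p-values measure the spread between those and not between animals, and fewer cells of a type and less RNA per cell cannot be told apart.

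Sequencing depth is unknown, because TPM keeps none. The genes at 1 TPM or more numbered 12229 to 12700 per library, and the 20 most abundant genes held 14.9% to 19.3% of the listed TPM. Library numbers ran consecutively within groups, so group and library order cannot be told apart. Fibroblast markers were expressed throughout: all 10 of the list, from Col1a1 to Vim, were tested, and their summed level was 11949 to 13543 TPM in DMSO. It was 4800 to 5967 TPM with Cardamonin, where all 10 were called lower (median -1.29), against 33% of all tested genes. With Antimycin A it was 9036 to 9616 TPM, with 8 lower and 1 higher (median -0.50), against 15.5% and 21.8% of all genes. With AEG 3482 it was 13057 to 14424 TPM, with 6 markers lower and 2 higher (median -0.33), from Lum at -1.59 to Col3a1 at 0.80. Of all genes 26.8% were lower and 41.3% higher there. The other 5 compounds had 5 to 7 markers lower and 1 higher. Of all genes 9.16% (BerberineA) to 20% (Podofilox) were lower and 4.95% (Dihydrorotenone) to 26.2% (Podofilox) higher in these groups. Adipocyte markers, of a cell type rich in these enzymes, summed to 13.0 to 38.5 TPM, with Lep and Plin1 at 0 in every library and 6 of 8 under 1 TPM. The keratinocyte and sebocyte list summed to 1.02 to 2.87 TPM, with Krt5, Krt79 and Awat1 at 0. The macrophage list summed to 191 to 251 TPM in DMSO and 102 to 115 TPM with Antimycin A, with Ptprc under 1 TPM everywhere. Its 5 other genes were tested, among them Lyz2 at 35.6 to 180 TPM and Cd14 at 30.2 to 118 TPM over all libraries. With Antimycin A 3 fell, most Lyz2 at -1.90, and Cd14 rose by 0.27 (15.5% and 21.8% of all genes). With Cardamonin 3 fell, most Adgre1 at -1.97, and 2 rose, most Cd68 at 1.26 (33% and 37.3%). The part of these shifts in the enzyme changes was not tested.

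In DMSO the 10 genes together held 470 ± 31.4 TPM (SD, n = 6). Scd2 was the most abundant member at 128 ± 6.20 TPM, which was 27.2% of that sum. Fads1 followed at 82.6 ± 8.53 TPM, Fads2 at 61.2 ± 8.24, Acly at 59.0 ± 3.86, Scd1 at 43.9 ± 4.51 and Elovl5 at 38.6 ± 1.53. Acaca stood at 21.1 ± 1.94 TPM, Fasn at 16.3 ± 3.87, Acss2 at 10.9 ± 1.17 and Elovl6 at 9.18 ± 0.495. Desaturases thus held the 3 highest levels, and the acetate-using synthetase and the palmitate elongase the 2 lowest. Replicates of a group lay close together for most genes. The median coefficient of variation within a group was 3.02% for Elovl5 and 4.57% for Scd2, but 10.8% for Acaca and 17.0% for Fasn.

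**Figure D1:**
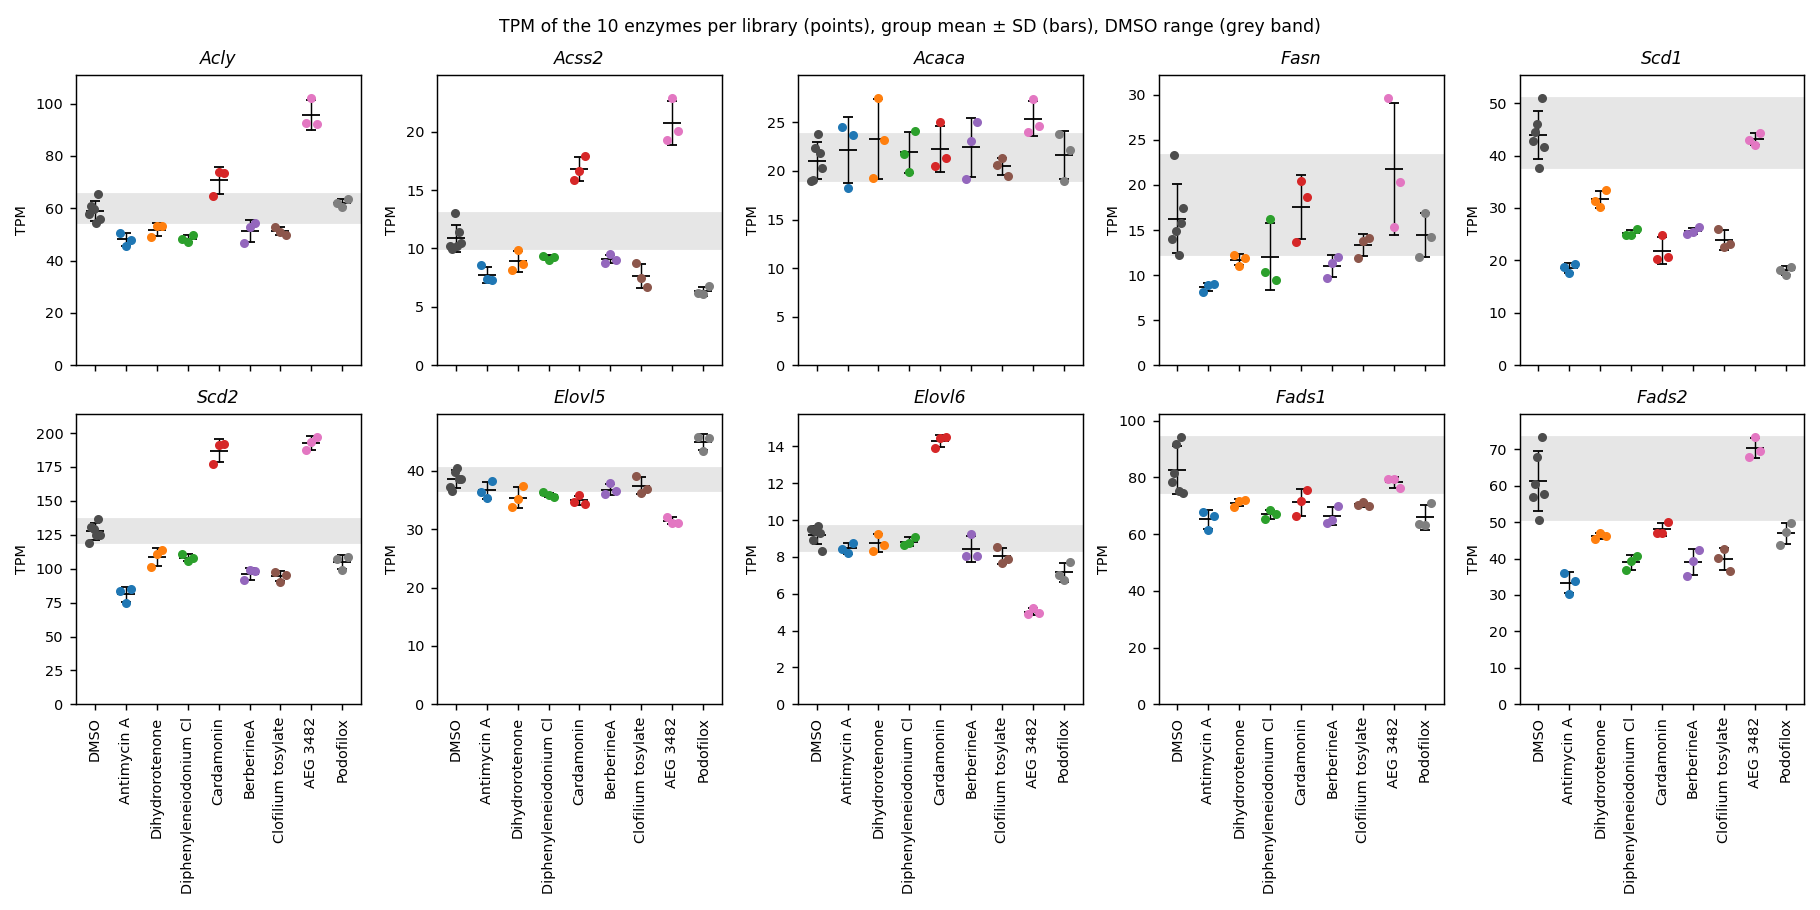
TPM of each enzyme gene (vertical axes, from 0) in the 9 groups (horizontal axes), with points for libraries, bars for the group mean ± SD and a grey band for the range of the 6 DMSO libraries. Scd1 lies below the band in every compound but AEG 3482, Scd2 above it with Cardamonin and AEG 3482, and Elovl6 far above it with Cardamonin and far below it with AEG 3482.

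The 8 comparisons with DMSO share the same 6 control libraries, and each was fitted with limma on log2(TPM + 1) with Benjamini-Hochberg adjustment over all 13644 tested genes at 0.05. Fold changes are on that scale, which understates changes of low genes. Antimycin A lowered 7 of the 10 enzymes and raised none. Of all tested genes 37.3% were called there, 21.8% higher and 15.5% lower. The median change of the enzymes was -0.39, against 0.03 for all genes, and 7 enzymes had all 3 libraries below the DMSO range, where 31% of all genes lay outside it in either direction. The same enzymes were not all affected alike: Scd1 fell by 1.19 while Acaca, Elovl5 and Elovl6 did not pass the test. Elovl5 and Elovl6 were called lower under each of the 3 other scalings tried (limma adjusted p = 0.00665 to 0.0488), which made 9 of 10.

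With BerberineA, 7 enzymes fell and none rose (background 21.7% called, 9.16% lower), with a median of -0.27 against 0.02 for all genes. The libraries of 7 enzymes all lay below the DMSO range, against 19.1% of all genes outside it. Clofilium tosylate gave 7 lower and none higher (23.4% called, 12.5% lower), with a median of -0.23. Diphenyleneiodonium Cl gave 5 lower and none higher (25.7% called, 11.7% lower), with a median of -0.26, and 7 enzymes had all 3 libraries below the DMSO range, against 24.5% of all genes outside it. Under each of the 3 other scalings Acss2 and Elovl5 were called lower as well, which made 7. In these 3 groups Scd1, Scd2, Fads1, Fads2 and Acly all passed the test downwards. Without BerberineA replicate 1 its count of called enzymes was 4, as Acly, Acss2 and Fasn lost their calls, while quantile normalization gave 9. The split of all called genes with BerberineA, 57.9% higher, became 47.8% when libraries were rescaled without the 20 most abundant genes. That rescaling took Antimycin A from 58.6% to 48.7%, Diphenyleneiodonium Cl from 54.4% to 46.3% and Cardamonin from 53.0% to 48.9%, but Podofilox from 56.7% to 58.0%. Median-ratio scaling took AEG 3482 from 60.7% to 50.9%. The shares of all genes called in each direction thus depend on the scaling.

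Dihydrorotenone also gave 7 lower and none higher (14.4% of all genes called, 4.95% higher and 9.43% lower), with a median of -0.22 against -0.03 for all genes. The called changes ran from -0.12 for Elovl5 to -0.45 for Scd1. Only Scd1, Scd2 and Fads2 kept their calls without Dihydrorotenone replicate 1, the library with the other donor age label, which leaves 3 of the 7. The count was also 3 without DMSO replicate 3 or without DMSO replicate 5, and 4 without Dihydrorotenone replicate 2. The split of all called genes, 34.4% higher, was 53.7% with median-ratio scaling and 47.2% with quantile normalization.

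Podofilox lowered 6 enzymes and raised 1, Elovl5 (46.2% of all genes called, 26.2% higher and 20% lower), with a median of -0.30 against 0.04. Cardamonin and AEG 3482, with which most genes of the cell were called, split the pathway. Cardamonin raised Acly, Acss2, Scd2 and Elovl6 and lowered Scd1, Elovl5, Fads1 and Fads2 (70.3% called, 37.3% higher and 33% lower). AEG 3482 raised Acly, Acss2, Acaca, Scd2 and Fads2 and lowered Elovl5 and Elovl6 (68.1% called, 41.3% higher and 26.8% lower). The shares of enzymes called, 8 and 7 of 10, are close to these backgrounds. In each of the 2 groups 6 enzymes lay wholly outside the DMSO range, against 61.6% of all genes with Cardamonin and 58.9% with AEG 3482. The calls of Acaca and Fads2 with AEG 3482 were lost under each of the 3 other scalings tried, under which Fads1 was called lower instead, between -0.16 and -0.24. The 5 higher calls with AEG 3482 were also 3 without its replicate 3, without DMSO replicate 1 or without DMSO replicate 6.

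**Figure D2:**
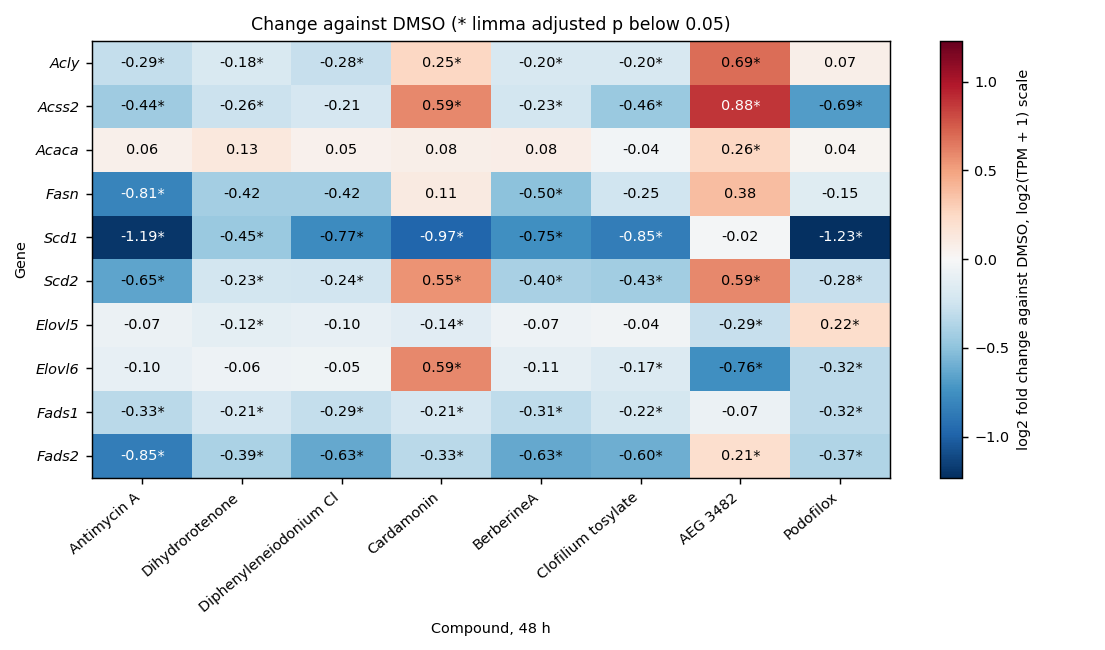
Log2 fold change against DMSO on the log2(TPM + 1) scale for each enzyme gene (rows) and compound (columns), blue lower and red higher, with * for a limma adjusted p below 0.05. The 10 called rises lie in the columns of Cardamonin, AEG 3482 and, for Elovl5, Podofilox, and Scd1, Fads1 and Fads2 were each called lower in 7 columns.

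Over the 80 pairs of enzyme and compound, which share the same DMSO libraries, 45 were called lower, 10 higher and 25 were not called. Of all tested genes, 9.16% (BerberineA) to 33% (Cardamonin) were called lower. The share called higher ran from 4.95% (Dihydrorotenone) to 41.3% (AEG 3482). Summed TPM of the 10 genes ran from 330 ± 19.0 with Antimycin A through 366 to 398 in the means of BerberineA, Clofilium tosylate, Diphenyleneiodonium Cl, Podofilox and Dihydrorotenone, to 505 ± 26.7 with Cardamonin and 584 ± 6.90 with AEG 3482 (SD, n = 3 each).

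The genes that supply acetyl-CoA come first. Acly, ENSMUSG00000020917, lies on the minus strand at chr11:100476353-100528000 of GRCm38, and Acss2, ENSMUSG00000027605, on the plus strand at chr2:155517948-155585724. The windows from 250 bases before to 50 bases after the RefSeq start (GRCm38.p6) of 4 enzyme genes, chosen by their levels, are shown. Acly, Acss2 and Fasn had their 2 highest group means with AEG 3482 and Cardamonin, although Fasn was not called against DMSO in either. Elovl6 was highest with Cardamonin and lowest with AEG 3482. Capitals mark GC boxes, GGGCGG, and CCAAT boxes, CCAAT, on either strand.
Acly, chr11:100527951-100528250, minus strand: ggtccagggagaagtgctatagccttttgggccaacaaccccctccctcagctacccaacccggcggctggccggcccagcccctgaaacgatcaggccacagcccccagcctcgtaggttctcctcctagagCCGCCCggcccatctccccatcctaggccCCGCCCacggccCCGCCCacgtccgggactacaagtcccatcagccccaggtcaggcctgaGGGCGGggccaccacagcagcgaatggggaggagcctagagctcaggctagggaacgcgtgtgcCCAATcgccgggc
Acss2, chr2:155517793-155518092, plus strand: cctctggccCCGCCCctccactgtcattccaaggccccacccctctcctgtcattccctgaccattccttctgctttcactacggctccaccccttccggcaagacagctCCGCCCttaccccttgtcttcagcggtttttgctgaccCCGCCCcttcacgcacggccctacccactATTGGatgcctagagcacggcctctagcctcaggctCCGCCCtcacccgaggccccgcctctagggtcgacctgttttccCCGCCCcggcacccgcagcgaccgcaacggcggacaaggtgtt
Fasn, chr11:120824498-120824797, minus strand: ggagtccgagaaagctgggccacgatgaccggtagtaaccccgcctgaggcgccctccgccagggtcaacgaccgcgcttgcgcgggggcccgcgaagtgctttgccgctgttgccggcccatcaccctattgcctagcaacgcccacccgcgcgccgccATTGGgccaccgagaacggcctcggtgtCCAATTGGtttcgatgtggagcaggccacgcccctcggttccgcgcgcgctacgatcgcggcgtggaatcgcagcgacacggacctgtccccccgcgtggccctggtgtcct
Elovl6, chr3:129532136-129532435, plus strand: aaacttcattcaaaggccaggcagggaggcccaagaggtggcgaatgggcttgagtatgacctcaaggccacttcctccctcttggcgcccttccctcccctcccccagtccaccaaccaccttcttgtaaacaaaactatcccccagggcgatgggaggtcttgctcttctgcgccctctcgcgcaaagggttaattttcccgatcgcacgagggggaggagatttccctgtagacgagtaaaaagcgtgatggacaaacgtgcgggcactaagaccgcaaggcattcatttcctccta

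Acly held 4 GC boxes and 1 CCAAT box, Acss2 5 and 1, and Fasn 3 CCAAT boxes, of which 2 overlap on opposite strands. The Elovl6 window held neither. Among the matched windows not shown, that of Elovl5, lowest with AEG 3482, held 2 CCAAT boxes. Fads2 and Acaca were both highest with AEG 3482, and the Fads2 window held 1 GC box and the Acaca window neither box. Whether boxes go with levels was not tested. Of the 32851 RefSeq promoter windows, 35.7% hold a GC box and 37.4% a CCAAT box. Promoters were matched for 7 of the 10 genes. The window matched for Acaca, chr11:84195188-84195487, lies inside the gene and not at its annotated start, 84129672. The sterol regulatory element searched for, TCACNCCAC, is found in 1.24% of all windows and in none of these 7, and the E-box CACGTG, found in 7.15%, occurred once, in Elovl5. These matches describe letters in a window and were not tested as sites.

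Acly ranged from 54.5 to 65.3 TPM over the DMSO libraries, with a median of 58.7. With AEG 3482 it read 92.5, 102 and 92.3 TPM in replicates 1 to 3, all above that range. Its change there was 0.69 ± 0.06 (log2, SE; limma adjusted p = 6.72e-11). With Cardamonin the libraries read 64.5, 74.0 and 73.3 TPM, of which the lowest lay inside the DMSO range, and the change was 0.25 (limma adjusted p = 0.000299). Acly was higher with AEG 3482 than with Cardamonin (Cardamonin minus AEG 3482, -0.43, limma adjusted p = 3.46e-06). Antimycin A gave 50.7, 45.7 and 48.0 TPM and Diphenyleneiodonium Cl 48.3, 47.1 and 49.6 TPM, all below the lowest control. The falls were small, -0.29 and -0.28, and those of Dihydrorotenone, BerberineA and Clofilium tosylate lay between -0.18 and -0.20. Podofilox, at 62.0 ± 1.45 TPM, was not called (95% interval of the change -0.05 to 0.19).

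Acss2 moved over a wider range than Acly. The DMSO libraries ran from 9.91 to 13.0 TPM with a median of 10.3. AEG 3482 gave 19.3, 22.9 and 20.1 TPM, a rise of 0.88 ± 0.08 (limma adjusted p = 4.98e-10), and Cardamonin 15.9, 16.6 and 17.9 TPM, a rise of 0.59 ± 0.08 (limma adjusted p = 3.83e-07). Neither group overlapped DMSO. Podofilox gave the lowest level, 6.14, 6.09 and 6.76 TPM, a fall of 0.69 on the log2 scale (limma adjusted p = 1.06e-07), while Acly in the same libraries was not called. Clofilium tosylate, at 7.63 ± 1.05 TPM, and Antimycin A, at 7.73 ± 0.706 TPM, fell by 0.46 and 0.44. Acss2 overlaps the oppositely oriented genes Gss and Ggt7, and whether the counting used strand is not given in the sources used here. Gss, glutathione synthetase, was at 29.8 ± 3.30 TPM in DMSO, 299.6 ± 34.3 TPM with Cardamonin and 206 ± 13.5 TPM with AEG 3482, the 2 groups in which Acss2 rose. With Podofilox Gss was at 34.5 ± 1.06 TPM. Ggt7 was at 19.4 ± 2.04 TPM in DMSO, 13.5 ± 1.04 TPM with Podofilox and 14.4 ± 0.419 TPM with Antimycin A. It was at 14.1 ± 0.346 TPM with Cardamonin and 19.0 ± 2.56 TPM with AEG 3482. The part of Gss and Ggt7 in the Acss2 values was not tested. Of the 31-base words of Acss2 transcripts, 7.6% occur in another gene, with 2.99% in Gss.

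Chain synthesis itself was less uniform. Acaca, ENSMUSG00000020532, at chr11:84129672-84401651 on the plus strand, was not called in 7 of the 8 compounds, with means of 20.5 to 23.3 TPM against 21.1 in DMSO and 95% intervals of the changes between -0.26 and 0.35. Only AEG 3482, with 24.0, 27.4 and 24.7 TPM, lay above the highest control library of 23.8 TPM, by 0.26 (limma adjusted p = 0.0349), the call that other scalings did not keep. It was also lost without AEG 3482 replicate 2 (limma adjusted p = 0.157) or replicate 3, and without DMSO replicate 1, 2 or 6 (limma adjusted p = 0.0525 to 0.0679 for these 4). Of the 31-base words of Acaca transcripts, 33.5% occur in another gene, mostly the predicted gene Gm5182, so its level is uncertain.

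Fasn, ENSMUSG00000025153, lies at chr11:120805846-120824547 on the minus strand and shares no 31-base word with another gene. The DMSO libraries ranged from 12.2 to 23.3 TPM with a median of 15.3, a wide spread. Antimycin A brought all 3 libraries, at 8.15, 8.91 and 8.98 TPM, below that range, a fall of 0.81 ± 0.18 (limma adjusted p = 0.000778). BerberineA gave 9.71, 11.3 and 12.0 TPM and a change of -0.50 (limma adjusted p = 0.0467), a call lost without any 1 of its libraries (limma adjusted p = 0.0724 to 0.172) or without any 1 of 4 DMSO libraries (limma adjusted p = 0.0524 to 0.104). Diphenyleneiodonium Cl gave 10.3, 16.3 and 9.49 TPM, so that 1 library stood among the controls and the group was not called (-0.42, limma adjusted p = 0.0918). Without that library, replicate 2, the change was -0.64 (limma adjusted p = 0.0189). AEG 3482 gave 29.7, 15.3 and 20.3 TPM, the widest spread of any group, and was not called (0.38, limma adjusted p = 0.065). Without AEG 3482 replicate 2 it was 0.59 (limma adjusted p = 0.00918), and without DMSO replicate 2, the highest control, 0.48 (limma adjusted p = 0.0145). No change of Fasn was called for Cardamonin, Clofilium tosylate or Podofilox, for which the 95% intervals together spanned -0.62 to 0.48. Dihydrorotenone was not called either, at -0.42 (95% interval -0.78 to -0.05, limma adjusted p = 0.127).

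The delta-9 desaturases gave the clearest changes of the pathway and separated from each other. Scd1, ENSMUSG00000037071, at chr19:44394455-44407879, and Scd2, ENSMUSG00000025203, at chr19:44293674-44306864, are neighbours on opposite strands with 87591 bases between them, and each shares 31-base words mainly with Scd3 (8.18% and 6.81% of its words occur elsewhere). Scd1 ranged from 37.6 to 51.0 TPM in DMSO, with a median of 43.7. Podofilox gave 18.2, 17.2 and 18.8 TPM, a fall of 1.23 ± 0.07 (limma adjusted p = 2.13e-13), and Antimycin A 18.8, 17.6 and 19.3 TPM, a fall of 1.19 ± 0.07 (limma adjusted p = 9.4e-13). These are less than 50% of the control level. Cardamonin followed with 20.3, 24.7 and 20.6 TPM (-0.97), Clofilium tosylate with 26.0, 22.6 and 23.1 (-0.85), Diphenyleneiodonium Cl with 24.9, 24.8 and 25.9 (-0.77) and BerberineA with 25.1, 25.4 and 26.3 (-0.75). Dihydrorotenone was the mildest of the 7 at 31.3, 30.3 and 33.4 TPM (-0.45, limma adjusted p = 8.37e-05). None of these 21 libraries reached the lowest control. AEG 3482, at 43.0, 42.0 and 44.3 TPM, stood inside the DMSO range and was not called (95% interval of the change -0.16 to 0.12), but was called lower under quantile normalization (-0.20, limma adjusted p = 0.0087).

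In the order of Scd1 levels, Podofilox and Antimycin A did not differ beyond their spread (0.04, limma adjusted p = 0.751), nor did Clofilium tosylate, Diphenyleneiodonium Cl and BerberineA. Cardamonin lay above Antimycin A by 0.22 (limma adjusted p = 0.0186), and AEG 3482 above Dihydrorotenone by 0.43 (limma adjusted p = 3.9e-05).

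Scd2 fell in 6 groups and rose in 2. Its DMSO libraries ranged from 119 to 137 TPM with a median of 127. AEG 3482 gave 187, 193 and 197 TPM, a rise of 0.59 ± 0.05 (limma adjusted p = 5.53e-11). Cardamonin gave 177, 192 and 192 TPM, a rise of 0.55 ± 0.05 (limma adjusted p = 1.67e-10), and the 2 compounds did not differ beyond their spread (-0.04, 95% interval -0.16 to 0.07). Antimycin A gave the lowest level, 83.3, 75.0 and 84.7 TPM, a fall of 0.65 ± 0.05 (limma adjusted p = 8.93e-11). Clofilium tosylate at 94.4 ± 3.58 and BerberineA at 96.2 ± 4.26 TPM came next, with -0.43 and -0.40. Podofilox, Diphenyleneiodonium Cl and Dihydrorotenone, at 105 to 109 TPM, changed by -0.28 to -0.23. All 18 libraries of these 6 groups were below the controls.

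Ratios between enzymes were taken within each library. The ratios printed are of TPM, while the exact permutation tests used log2 ratios of TPM + 1. Of the 24 ratio tests 15 were called on that scale, 16 with 0.1 in place of 1 and 18 with nothing added. The ratio of Scd1 to Scd2 was 0.344 ± 0.0249 in DMSO (range 0.302 to 0.373). Cardamonin gave 0.114, 0.129 and 0.107, the lowest of any group, with Scd1 lower and Scd2 higher. Podofilox gave 0.171, 0.174 and 0.173, and AEG 3482 0.229, 0.217 and 0.225, the latter with Scd2 higher and Scd1 not called. The ratio was lower in 7 of 8 compounds, each with an exact two-sided permutation p of 0.0119, the smallest that 3 against 6 libraries allow, and an adjusted p of 0.019 over the 24 ratio tests. For Dihydrorotenone, with 0.309, 0.272 and 0.294, the exact permutation test gave an adjusted p of 0.0504, and the ratio was called with nothing added to TPM. Scd2 made up 37.1% of the summed enzyme TPM with Cardamonin and 33.0% with AEG 3482, against 27.2% in DMSO.

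**Figure D3:**
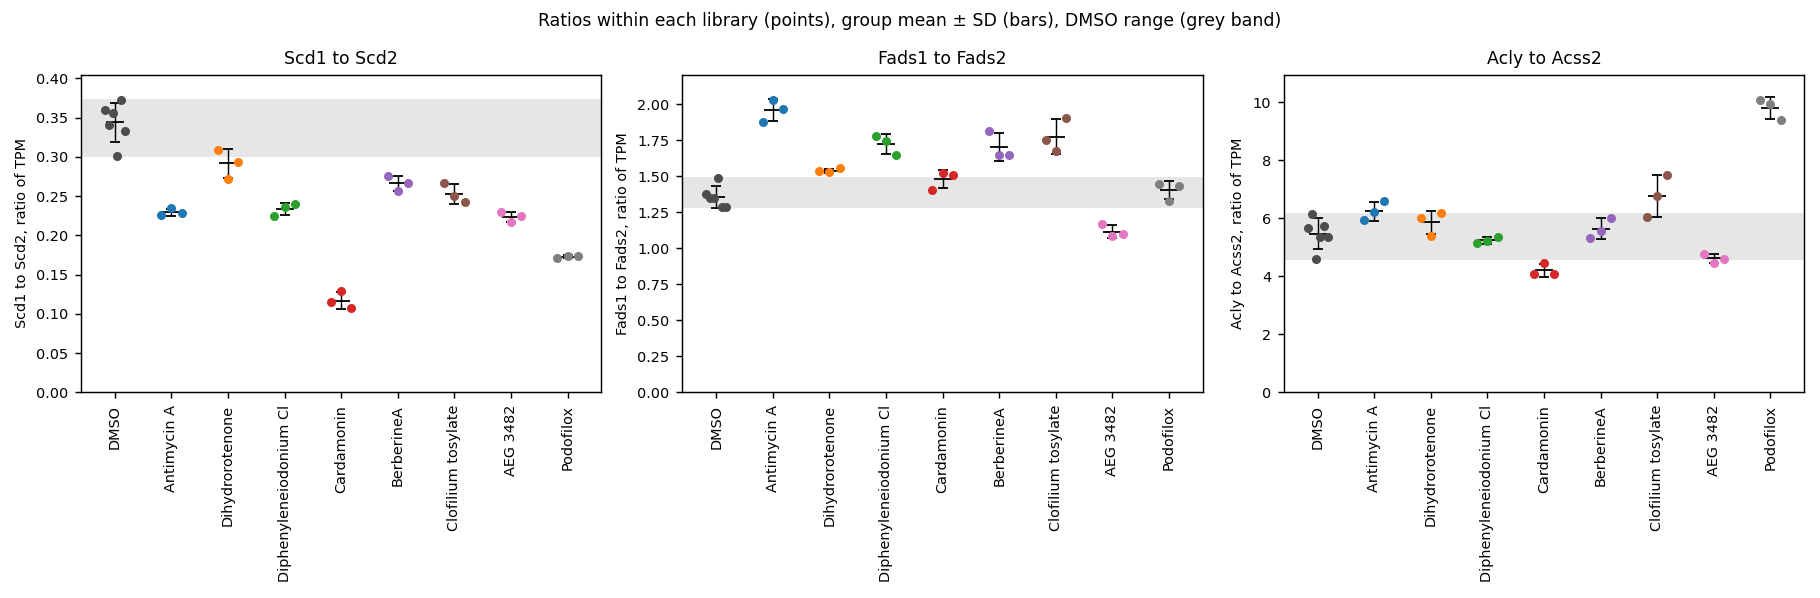
Ratio of TPM between paired enzymes within each library (vertical axes, from 0) by group, with points for libraries, bars for the mean ± SD and a grey band for the DMSO range. Scd1 to Scd2 is lowest with Cardamonin (0.117 on average), Fads1 to Fads2 highest with Antimycin A (1.96) and Acly to Acss2 highest with Podofilox (9.80).

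The elongases went their own ways. Elovl6, ENSMUSG00000041220, at chr3:129532355-129638495 on the plus strand, ranged from 8.31 to 9.66 TPM in DMSO with a median of 9.35. Cardamonin gave 13.9, 14.4 and 14.5 TPM, a rise of 0.59 ± 0.06 (limma adjusted p = 5.09e-10), and AEG 3482 gave 4.89, 5.25 and 4.94 TPM, a fall of 0.76 ± 0.06 (limma adjusted p = 6.3e-12). The 2 compounds moved Elovl6 in opposite directions and differed by 1.34 ± 0.06 (limma adjusted p = 6.16e-15), the largest difference between them among the enzymes. Podofilox gave 7.01, 6.75 and 7.71 TPM, a fall of 0.32 (limma adjusted p = 2.91e-05). Clofilium tosylate changed by -0.17 (limma adjusted p = 0.025), a call lost without its replicate 2 or replicate 3. The other 4 compounds had means of 8.44 to 8.82 TPM and were not called.

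Elovl5, ENSMUSG00000032349, at chr9:77917364-77984519 on the plus strand, had the smallest spread between replicates. Its DMSO libraries lay between 36.5 and 40.6 TPM with a median of 38.6. Podofilox gave 45.8, 43.4 and 45.7 TPM, all above the controls, a rise of 0.22 ± 0.04 (limma adjusted p = 5.19e-05). No other enzyme rose with Podofilox. AEG 3482 gave 32.1, 31.1 and 31.1 TPM, all below, a fall of 0.29 ± 0.04 (limma adjusted p = 4.39e-07). Cardamonin, at 35.0 ± 0.782 TPM, changed by -0.14 and Dihydrorotenone, at 35.4 ± 1.82 TPM, by -0.12. The Dihydrorotenone call was lost without its replicate 1 (limma adjusted p = 0.244). It was also lost without its replicate 2 or without DMSO replicate 3, 4 or 5 (limma adjusted p = 0.0563 to 0.12). Median-ratio scaling, quantile normalization, a replicate block and a fit with DMSO alone removed it too (limma adjusted p = 0.056 to 0.183).

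Fads1, ENSMUSG00000010663, at chr19:10182888-10196877 on the plus strand, and Fads2, ENSMUSG00000024665, at chr19:10062765-10101746 on the minus strand, are neighbours with 81142 bases between them. They encode the delta-5 and delta-6 desaturases that act in turn on polyunsaturated fatty acids. Both were called lower in the same 7 compounds, against shared controls. Fads2 ranged from 50.4 to 73.4 TPM in DMSO with a median of 59.2. Antimycin A gave 36.1, 30.3 and 33.7 TPM, a fall of 0.85 ± 0.08 (limma adjusted p = 8.53e-09). Diphenyleneiodonium Cl, BerberineA and Clofilium tosylate, with means of 39.0, 39.0 and 39.8 TPM, fell by 0.63, 0.63 and 0.60. Dihydrorotenone, Podofilox and Cardamonin, with means of 46.2, 46.9 and 48.1 TPM, changed by -0.39, -0.37 and -0.33, and all 21 libraries lay below the lowest control. AEG 3482, at 67.9, 73.3 and 69.4 TPM, overlapped the controls and was called higher by 0.21 (limma adjusted p = 0.03). That call was lost under other scalings, with AEG 3482 and DMSO fitted alone (limma adjusted p = 0.1), without AEG 3482 replicate 2 or 3 and without DMSO replicate 1, 4 or 6 (limma adjusted p = 0.052 to 0.117).

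Fads1 changed less. It ranged from 74.4 to 94.3 TPM in DMSO with a median of 80.1. Antimycin A gave 67.8, 61.5 and 66.3 TPM (-0.33, limma adjusted p = 0.000115), Podofilox 63.5, 63.2 and 71.1 TPM (-0.32) and BerberineA 63.8, 65.1 and 69.9 TPM (-0.31). The other 4 changes ran from -0.29 with Diphenyleneiodonium Cl to -0.21 with Dihydrorotenone. The Dihydrorotenone call was lost without any 1 of its libraries or without DMSO replicate 3 or 5 (limma adjusted p = 0.0521 to 0.103). Fitted with DMSO alone, Dihydrorotenone (limma adjusted p = 0.148) and Clofilium tosylate (limma adjusted p = 0.0882) both lost the call. Compounds called lower did not differ from one another in Fads1. AEG 3482, at 78.3 ± 1.90 TPM, was not called without rescaling. The ratio of Fads1 to Fads2 was 1.36 ± 0.0750 in DMSO. It rose to 1.88, 2.03 and 1.97 with Antimycin A, and to means of 1.78 with Clofilium tosylate, 1.72 with Diphenyleneiodonium Cl, 1.70 with BerberineA and 1.54 with Dihydrorotenone. AEG 3482 lowered it to 1.17, 1.08 and 1.10. For these 6 compounds the exact permutation p was 0.0119 and the adjusted p 0.019, while Cardamonin and Podofilox gave adjusted exact permutation p-values of 0.0794 and 0.447. The ratio of Acly to Acss2, 5.47 ± 0.517 in DMSO, was called for 2 compounds. It was 10.1, 9.94 and 9.39 with Podofilox and 4.06, 4.45 and 4.09 with Cardamonin. With nothing added to TPM, Clofilium tosylate, at a mean ratio above DMSO, and AEG 3482, at one below, were called too.

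Direct contrasts between the compounds show where the groups differ. Over the 28 pairs of compounds and 10 enzymes, 136 of 280 differences were called. The share of all tested genes called ran from 0.623% to 67.1% over these pairs, so the total is to be read against each pair's share. BerberineA and Diphenyleneiodonium Cl differed in 0 of 10 enzymes, where 0.623% of all genes were called. Dihydrorotenone against BerberineA (1.51% of all genes), Diphenyleneiodonium Cl against Clofilium tosylate (3.15%) and BerberineA against Clofilium tosylate (2.81%) also gave 0 of 10. Scd1 was nevertheless higher with Dihydrorotenone than with BerberineA by 0.30 (95% interval 0.13 to 0.46, limma adjusted p = 0.0601). Its libraries there read 30.3 to 33.4 against 25.1 to 26.3 TPM, so the lack of a call does not show equal levels. Between Diphenyleneiodonium Cl and BerberineA the 95% intervals ran from -0.19 to 0.14 for Scd1 and from -0.34 to 0.51 for Fasn, so differences of that size are not excluded. Antimycin A differed from Dihydrorotenone, which also blocks electron transfer in mitochondria, in 3 of 10 (15.5% of all genes). Scd1 was lower with Antimycin A by 0.74 ± 0.08 (18.6 against 31.7 TPM, limma adjusted p = 3.53e-07), Scd2 by 0.42 ± 0.06 (81.0 against 109 TPM) and Fads2 by 0.46 ± 0.10 (33.4 against 46.2 TPM). Antimycin A differed in 2 of 10, Scd1 and Scd2, from Diphenyleneiodonium Cl (6.04% of all genes), BerberineA (9.04%) and Clofilium tosylate (5.21%). Dihydrorotenone differed in 1 of 10, Scd1, from Diphenyleneiodonium Cl (3.68%) and Clofilium tosylate (2.46%). Doses were not used here, so these are differences between treated cultures whose exposures may not match. Antimycin A and Podofilox, not called apart in Scd1, differed in 7 of 10 enzymes (41.4% of all genes), among them Acly, Fasn, Scd2, Elovl5 and Fads2 higher with Podofilox and Acss2 and Elovl6 higher with Antimycin A. Podofilox differed from Dihydrorotenone in 5 of 10 (45.2%), from Diphenyleneiodonium Cl and BerberineA in 6 (42.7% and 42.6%) and from Clofilium tosylate in 4 (39.1%). Cardamonin differed in 7 of 10 from Antimycin A (64.2%), Diphenyleneiodonium Cl (65.4%) and BerberineA (65.5%), in 6 from Dihydrorotenone (67.1%) and Podofilox (57.8%), and in 5 from Clofilium tosylate (65.1%). AEG 3482 stood furthest from the rest, with 9 of 10 against Antimycin A (64.4%), Diphenyleneiodonium Cl (64.3%), BerberineA (63.9%), Clofilium tosylate (64.4%) and Podofilox (60.3%) and 8 against Dihydrorotenone (65.4%). Cardamonin and AEG 3482 differed in 6 of 10 (55.3% of all genes). Elovl6 and Elovl5 were higher with Cardamonin, and Scd1 (-0.95 ± 0.08, limma adjusted p = 2.46e-10), Fads2 (-0.54), Acly (-0.43) and Acss2 (-0.29) were lower.

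Regulators of the pathway were read from the same fit. Of 13 tested regulators, 9 rose and 3 fell with AEG 3482 (41.3% and 26.8% of all genes). Srebf1, which encodes SREBP-1, rose from 68.6 ± 3.69 TPM in DMSO to 102 ± 10.2 TPM (0.56), and Srebf2, which encodes SREBP-2, by 0.69. Scap, the escort protein of the SREBPs, rose by 0.998 (log2, SE 0.07, limma adjusted p = 6.91e-12), and Insig1, which retains Scap in the endoplasmic reticulum and is itself an SREBP target, rose by 0.65. Cebpa rose by 1.88 and Pparg, at 1.75 TPM in DMSO, fell by 0.76. With Antimycin A 2 regulators rose and 5 fell (21.8% and 15.5% of all genes). Insig1 changed by -0.77 ± 0.06 (limma adjusted p = 4.86e-10), Srebf1 by -0.35 and Srebf2 by -0.28. Insig1 also fell by 0.44 to 0.45 with Diphenyleneiodonium Cl, BerberineA and Clofilium tosylate and by 0.23 with Dihydrorotenone. Of the 13, 4 fell with Diphenyleneiodonium Cl (11.7% of all genes), 4 with BerberineA (9.16%), 4 with Clofilium tosylate (12.5%) and 5 with Dihydrorotenone (9.43%), and 2 rose with BerberineA (12.6%). The 5 called with Dihydrorotenone were 2 with median-ratio scaling, 3 with quantile normalization and 1 fitted with DMSO alone, and the 6 called with BerberineA were 3 in the last of these. With Cardamonin 7 rose and 4 fell (37.3% and 33% of all genes), with Srebf1 at 0.20, Srebf2 at -0.25, Mlx at 0.91 and Pparg at -1.16. With Podofilox, which called 46.2% of all genes, 1 regulator rose, Mlx at 0.22, and 3 were called with median-ratio scaling or quantile normalization. Mid1ip1, a partner of acetyl-CoA carboxylase, rose by 0.67 with Cardamonin and 0.66 with AEG 3482 and fell by 0.49 with Diphenyleneiodonium Cl and 0.34 with Dihydrorotenone. Its relative Thrsp was near 0, at 0.00812 TPM on average in DMSO.

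Of 9 genes that bring citrate and NADPH to the pathway, 8 were tested. With AEG 3482 5 rose and none fell (41.3% and 26.8% of all genes). With Cardamonin 3 rose and 2 fell, against 37.3% and 33% of all genes, so these shares are near or below the background. Me1, malic enzyme and a known NRF2 target, rose from 60.9 ± 4.63 TPM to 171 ± 3.21 TPM with Cardamonin (1.48 ± 0.05, limma adjusted p = 1.2e-18), to 121 ± 6.35 TPM with AEG 3482 (0.99) and to 84.1 ± 2.56 TPM with Podofilox (0.46). Slc25a1, the mitochondrial citrate carrier, rose by 0.68 with AEG 3482. Idh1, cytosolic isocitrate dehydrogenase, rose by 0.48 with Cardamonin and 0.17 with AEG 3482 and fell in the other 6, most with Antimycin A at -0.37. In those 6 groups 2 of 8 fell with Antimycin A (15.5% of all genes), Diphenyleneiodonium Cl (11.7%), Clofilium tosylate (12.5%) and Podofilox (20%). With Dihydrorotenone (9.43%) and BerberineA (9.16%) 1 fell. A single gene rose with Antimycin A (21.8% of all genes higher), BerberineA (12.6%) and Podofilox (26.2%), and none with the others.

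Of 11 other elongation and desaturation genes tested, 6 rose and 3 fell with AEG 3482 (41.3% and 26.8% of all genes), and 3 rose and 4 fell with Cardamonin (37.3% and 33%). Except for the rises with AEG 3482, these counts are near or below the shares of all genes. Hacd3, a dehydratase of the elongation cycle, rose by 1.22 with Cardamonin and 0.71 with AEG 3482, and Hacd4 of the same family fell by 2.97 and 1.33, and by 1.54 with Podofilox. Fads3 fell from 34.4 ± 3.31 to 15.6 ± 1.05 TPM with Cardamonin (-1.09). Elovl1, an elongase of long saturated chains, rose by 0.56 with AEG 3482. It fell in 5 other groups, by 0.33 with Antimycin A and with Diphenyleneiodonium Cl.

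Among 14 genes of fatty acid activation and esterification, 7 rose and 1 fell with Antimycin A (21.8% and 15.5% of all genes), in the libraries where 7 of the 10 synthesis enzymes fell. These 8 calls were 5 when libraries were rescaled without the 20 most abundant genes and 4 when fitted with DMSO alone. The largest rise was that of Plin2, a lipid droplet coat protein, from 199 ± 46.3 to 261 ± 30.5 TPM (0.42, limma adjusted p = 0.0152). Cardamonin gave 7 higher and 3 lower (37.3% and 33% of all genes), with Plin2 at 1466 ± 88.7 TPM (2.91 ± 0.13, limma adjusted p = 3.12e-16), and AEG 3482 gave 8 and 3 (41.3% and 26.8%), with Plin2 at 516 ± 50.1 TPM (1.40). With Podofilox 4 rose and 2 fell (26.2% and 20%), led by Acsl4 at 0.92, and Acsl3 rose by 0.66, both acyl-CoA synthetases. The fatty acid oxidation list of 17 gave 12 lower and 1 higher with Podofilox, where 20% of all genes were lower and 26.2% higher. With AEG 3482 it gave 8 higher and 7 lower, where 41.3% were higher and 26.8% lower. Cpt1a, the carnitine acyltransferase of mitochondrial entry, rose by 0.73 with Cardamonin and 0.66 with AEG 3482. Acadl, an acyl-CoA dehydrogenase, rose by 1.31 with Cardamonin.

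Genes of cholesterol synthesis and uptake belong to the other main SREBP programme. Of the 20 tested 17 fell with Antimycin A (15.5% of all genes), 15 with Diphenyleneiodonium Cl (11.7%), 15 with BerberineA (9.16%), 13 with Clofilium tosylate (12.5%), 16 with Podofilox (20%) and 18 with Cardamonin (33%), where 1 rose. With Dihydrorotenone 10 fell (9.43%), and 4 with median-ratio scaling, 5 with quantile normalization and 2 fitted with DMSO alone. The medians ran from -0.24 with Dihydrorotenone to -0.71 with Cardamonin. With AEG 3482 9 rose and 3 fell (41.3% and 26.8% of all genes), with a median of 0.14 against 0.10 for all genes. Hmgcs1, an early enzyme of the route, was lower in all 8 (-1.30 with Cardamonin, -1.05 with Antimycin A and -0.18 with AEG 3482). With Cardamonin the cholesterol genes were thus lower in the same libraries in which Acly, Acss2, Scd2 and Elovl6 were higher.

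**Figure D4:**
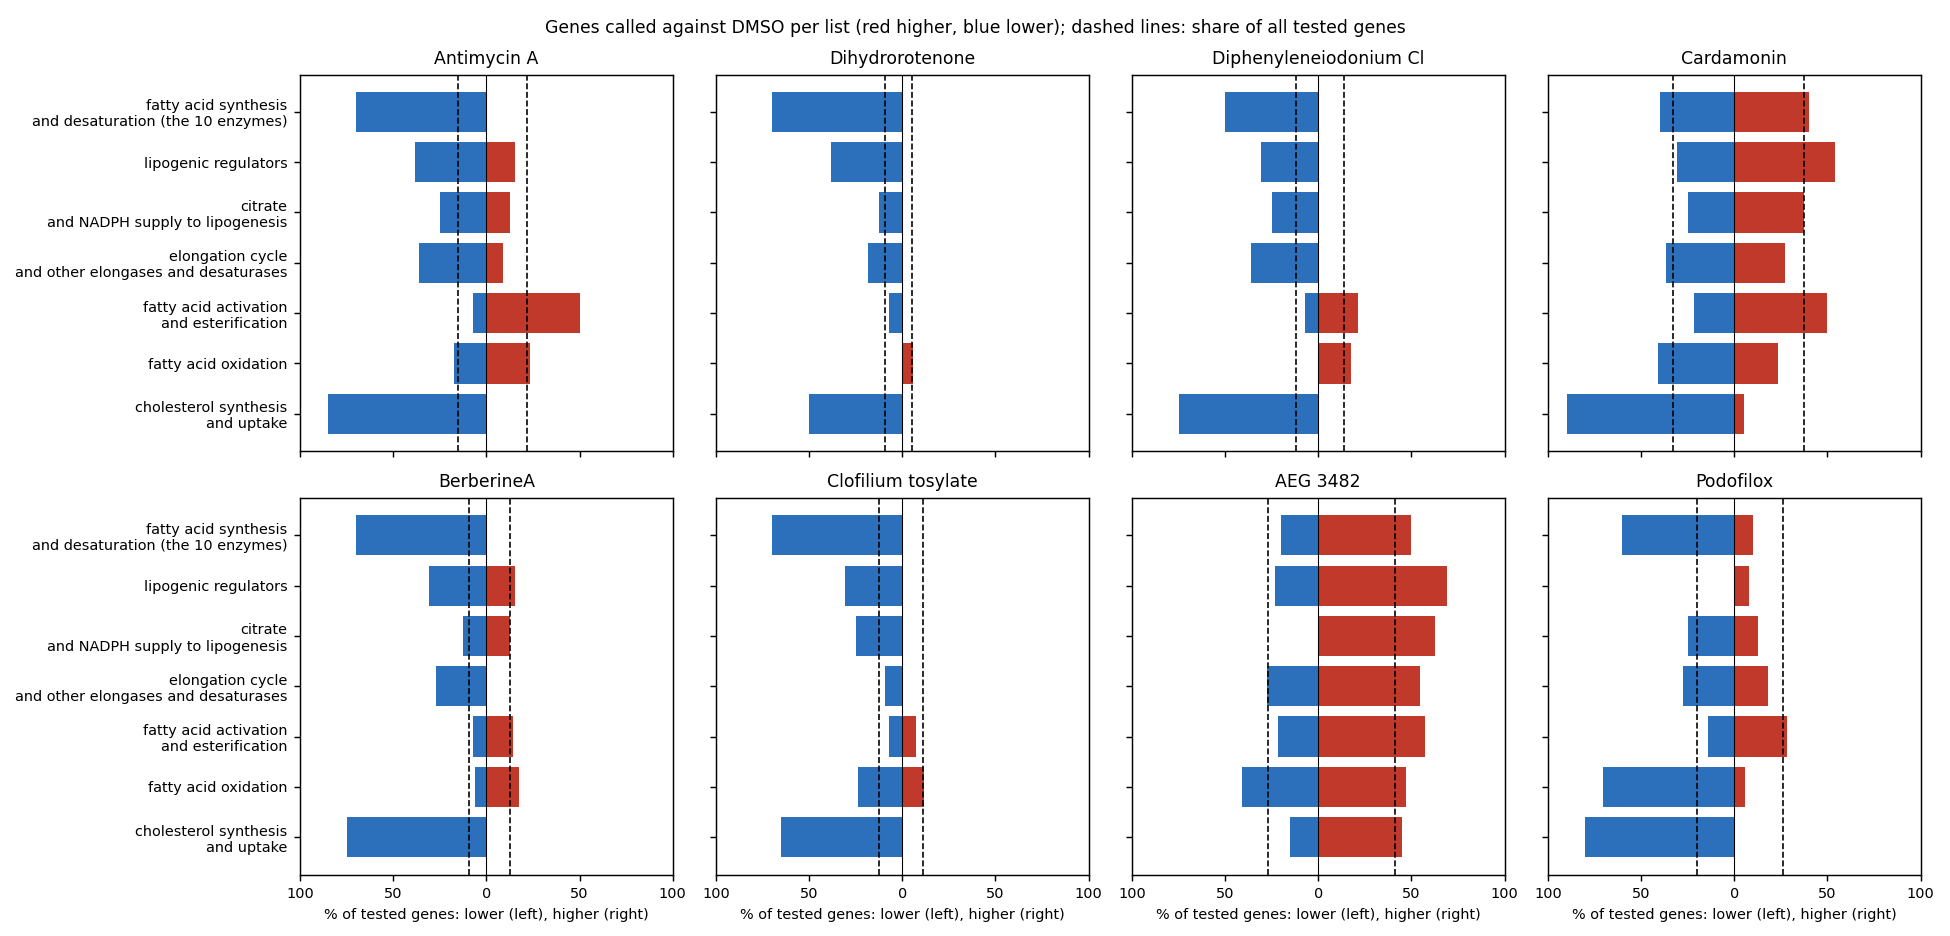
Share of tested genes called higher (right, red) and lower (left, blue) against DMSO in each gene list (rows) and compound (panels), in percent, with dashed lines for the share of all tested genes called in that direction. Cholesterol genes and the 10 enzymes pass the lower line in most panels, and with AEG 3482 the regulators pass the higher line with 9 of 13.

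Over the 9 group means of log2(TPM + 1), which share the normalization to each library's total, Scd2 followed Acss2 (Pearson r = 0.92) and Fasn (r = 0.90), Acly followed Fasn (r = 0.90), and Scd1 followed Fads1 (r = 0.89) more closely than its neighbour Scd2 (r = 0.50). Elovl6 followed none of them (r between -0.47 and 0.09). Among 10208 other genes ranked, the 3 closest to Fasn were Zbtb48 (r = 0.96), Serpinh1 (r = 0.95) and Ncbp2 (r = 0.95), and the 3 closest to Scd1 were Col11a1 (r = 0.97), S100a4 (r = 0.97) and Camk2g (r = 0.96). These values describe 9 means and were given no test.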

How the data were processed

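Per the labels' protocols, RNAzol was used to isolate total RNA, from which ribosomal RNA was removed. The authors quantified transcripts with kallisto 0.43.1 and named the mm10 build and FastQC, per the submitters' processing notes, and summed transcripts with tximport and tested with DESeq2, per the series text. The deposited table holds the authors' TPM for 30 libraries, with 1 column per library. The transcript index and strand setting are not given in the sources used here. The listed genes sum to 92.7% to 93.7% of 1000000 TPM. All 6 libraries labelled DMSO were used, although the series text counts 5.

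Identifiers were matched to GENCODE M21 for 29426 genes (98.5%). The 13644 genes reaching 1 TPM in 3 or more libraries were fitted with limma 3.58.1 in R 4.3.3 on log2(TPM + 1), with 1 mean per group, a trended empirical Bayes variance and no covariate, and Benjamini-Hochberg adjustment within each contrast. The fit was tested on simulated data. Log2 ratios of TPM + 1 were compared with exact permutation tests. Promoters came from RefSeq (GRCm38.p6), with 1 start per gene. All 10 enzymes are named in every comparison. Of the other lists, 15 genes listed in the design and the largest rise and fall per list and compound could be named. The enzymes and lists were chosen with earlier results of these data known. Some genes of the cholesterol list are counted but not reported by name here.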

Additional observations from a re-analysis of the deposited data

How the results depend on the processing

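No call changed direction under any alternative tried: another pseudocount, no filter or a mean of at least 5 TPM, median-ratio scaling, quantile normalization, rescaling without the 20 most abundant genes, a replicate block, each compound and DMSO fitted alone, and leaving out each library. Of 55 called pairs of enzyme and compound, 43 kept their call throughout. Fitted with DMSO alone, Dihydrorotenone had 898 genes called in place of 1963 and 3 enzymes in place of 7, and BerberineA 4 enzymes in place of 7. The log2 fold changes were the same in both fits, such as -0.183 for Acly with Dihydrorotenone, so the fits differed in their p-values only. Whether fewer libraries or a larger spread lowered the counts was not tested. With 1 library left out, called genes for Dihydrorotenone ran from 1233 (without its replicate 1) to 2179 and called enzymes from 3 to 7, and called enzymes for BerberineA from 4 to 7. Direct contrasts called over all 36 pairs of groups numbered 191, from 182 with no filter to 201 with quantile normalization, and 184 to 192 with 1 library left out. Ratio calls, 15 of 24, were 13 to 18 with 1 library left out, a range that says nothing on stability, because fewer libraries raise the smallest exact p.

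Same-numbered libraries of a compound and DMSO correlated between -0.05 and 0.12 in their deviations from group means, and in no compound were all 3 pairs over 0.1, so the numbers were not taken as pairs. Of the 24 treated libraries, 7 correlated best with their own number. The replicate block removed 4 calls: Dihydrorotenone Acss2 (limma adjusted p = 0.0771) and Elovl5 (0.183), and BerberineA Acss2 (0.0987) and Fasn (0.0512). Depth is unknown, and the spread of Fasn and Acaca limits what small changes of these 2 genes can be seen.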
